A study of Mus musculus with 4 samples.

Results

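The cells described here are the lysozyme-high cells of mouse intestinal organoids that carried few goblet transcripts. They were chosen by 3 limits on their own counts, applied to barcodes with at least 500 detected genes. A member had Lyz1 at 5000 CPM or more, a summed level of the goblet genes Muc2, Fcgbp, Zg16 and Clca1 under 1000 CPM, and a summed level of the dividing-cell genes Mki67, Top2a, Cenpf, Ube2c, Birc5 and Cdk1 under 500 CPM. CPM is a gene's number of UMIs, or distinct RNA molecules, per 1000000 UMIs of the cell, or of all members of a library summed. Of 5429 barcodes, 108 were members, with 24 of 1160 in control 1, 9 of 686 in control 2, 24 of 1650 in knockout 1 and 51 of 1933 in knockout 2. Because Lyz1, the 4 goblet genes and the 6 dividing-cell genes chose the members, their levels are given only as a description.

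The organoids were grown from intestinal crypts of 2 mice aged 10 weeks that carried the alleles Cbl flox/flox, Cbl-b flox/flox and R26Cre ERT2. R26Cre ERT2 places a tamoxifen-activated Cre recombinase in the broadly expressed Rosa26 locus, so all cells of both groups carried the floxed alleles and Cre. For the knockout, replated organoids were kept for 3 days in 400 nM 4-hydroxytamoxifen, which removes the floxed Cbl and Cblb. These genes encode ubiquitin ligases that down-regulate activated receptor tyrosine kinases. The control organoids were grown without the drug, so the deletion and the drug cannot be told apart. Each group has 2 libraries, numbered 1 and 2. Libraries of one number were taken to come from one mouse, because their files share a tag, though the labels do not say so in words, and the labels do not say how many wells each came from.

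Paneth cells are the granule-filled secretory cells of the small-intestinal crypt base. They release lysozyme, alpha-defensins and other antimicrobial proteins, and they feed neighbouring stem cells with Wnt, Notch and epidermal growth factor signals. They arise from the same Atoh1-dependent secretory progenitors as goblet cells, and Wnt signalling and Sox9 favour the Paneth fate. Members held 603104, 409707, 332464 and 839827 UMIs in control 1, control 2, knockout 1 and knockout 2. The median member had 22412.5, 54476, 13994 and 14885 UMIs in the same order, so control 2 had the fewest and the deepest member cells. Between libraries 2 barcodes were shared in all, and neither belonged to a member.

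The upstream sequences of Lyz1 and of the marker defensins Defa22 and Defa30 are shown because Defa22 and Defa30 moved together from cell to cell. Whether these sequences have a part in that was not tested. Each run is the 250 bases before the RefSeq start on GRCm38.p6, read 5′ to 3′ on the gene's strand. Capitals mark the letters CTTTGA or, on the other strand, TCAAAG, the core that TCF factors of the Wnt pathway read. The window of Defa22 (chr8:21162027-21162276, plus strand) held 2 matches, that of Defa30 (chr8:21134400-21134649, plus strand) held 1 and that of Lyz1 (chr10:117292869-117293118, minus strand) held 0.
Defa22: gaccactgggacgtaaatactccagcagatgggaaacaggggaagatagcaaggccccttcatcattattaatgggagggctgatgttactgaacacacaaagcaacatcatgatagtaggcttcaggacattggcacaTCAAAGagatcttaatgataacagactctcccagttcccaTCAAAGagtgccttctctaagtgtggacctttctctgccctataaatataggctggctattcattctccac
Defa30: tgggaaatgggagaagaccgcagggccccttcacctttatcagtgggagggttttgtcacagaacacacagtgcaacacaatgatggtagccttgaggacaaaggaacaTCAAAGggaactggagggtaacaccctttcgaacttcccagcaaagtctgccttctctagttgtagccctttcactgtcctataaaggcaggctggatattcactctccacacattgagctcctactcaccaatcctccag
Lyz1: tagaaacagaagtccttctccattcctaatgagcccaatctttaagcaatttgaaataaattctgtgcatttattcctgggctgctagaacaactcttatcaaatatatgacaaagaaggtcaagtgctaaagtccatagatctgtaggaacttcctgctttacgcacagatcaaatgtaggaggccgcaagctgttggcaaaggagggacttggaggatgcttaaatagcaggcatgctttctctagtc

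The Defa22 and Defa30 windows were 60.7% identical in a global alignment, against 48.9% for Defa22 with Lyz1. Of the 22 Defa features, 12 matched the RefSeq promoter table, and all 12 windows held the TCF core letters on one strand or the other, against 13.8% of 32851 promoter windows of the same length. The TATA letters TATAAA, on either strand, stood in 11 of the 12 and in 12.4% of all windows. The letters CAGCTG, an E-box of the kind Atoh1 reads, stood in 1 of the 12 and in 13% of all windows. The Defa windows are copies of one another to a large degree, so they are not 12 independent cases, and a match is not a binding site.

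The label "Paneth" was checked against the markers Defa22, Defa30 and Mmp7, since Lyz1, the other marker, chose the cells. Lyz1 (lysozyme, chr10:117287797-117292868) stood at 26000, 76700, 50300 and 36300 CPM in the summed members of control 1, control 2, knockout 1 and knockout 2. All other cells, outside the lysozyme-high and goblet classes, held 141 to 182 CPM of it. Defa30 (an alpha-defensin, chr8:21134642-21135598) reached 42400, 78000, 67300 and 24700 CPM in members and 82.7 to 202 CPM in all other cells. Defa22 (chr8:21162277-21163249) gave 16900, 43200, 30900 and 15200 CPM against 26.6 to 62.1 CPM. Mmp7, the matrilysin that activates pro-defensins in mouse Paneth granules (chr9:7692090-7699585), gave 2280, 2430, 3370 and 2620 CPM against 59.9 to 108 CPM. Defa22, Defa30 and Mmp7 were above the other cells in every library. At least 1 UMI of Mmp7 was found in 107 of 108 members and in 24.1% of the other cells.

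Defa transcripts were also counted in cells outside the Paneth and goblet classes, and how much of this was free RNA was not tested. At least 1 Defa24 UMI was found in 81.5% of the 4503 other cells, whose median depth was 18560 UMIs, against 107 of 108 members at a median of 17070. The levels differed far more than these shares, with 733 to 1840 CPM of Defa24 in other cells and 91200 to 180000 CPM in members. For Defa22, 13.1% of other cells and 67.6% of members had a UMI.

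The words "without goblet transcripts" were not borne out in full. Muc2, the main intestinal mucin, was detected in 96 of 108 members and reached 381, 469, 460 and 349 CPM in control 1, control 2, knockout 1 and knockout 2. Other cells held 14.1 to 48.2 CPM, and the goblet-Paneth cells, lysozyme-high cells above the goblet limit, held 1450 to 1970 CPM. The whole goblet sum was 0 in 6 of 108 members. Zg16 and Clca1, mucus granule genes in the same sum, gave at most 4.97 and 11.9 CPM in any library. Goblet products that the rule did not use were abundant: the trefoil peptide Tff3 stood at 8430, 7820, 8560 and 10100 CPM and was detected in all 108 members. Spink4, a secreted goblet and Paneth peptide, stood at 8330, 8270, 13600 and 10500 CPM. Both were lower than in goblet-Paneth cells of the same library, where Tff3 was 14900 to 26600 CPM. The members are therefore called lysozyme-high cells low in goblet transcripts. Those nearest the goblet limit did not stand apart: 20 members with a sum of 900 to 1000 CPM had a median of 31.18% of UMIs in granule genes, and 28 cells just outside, at 1000 to 1100 CPM, had 26.22%.

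**Figure D1:**
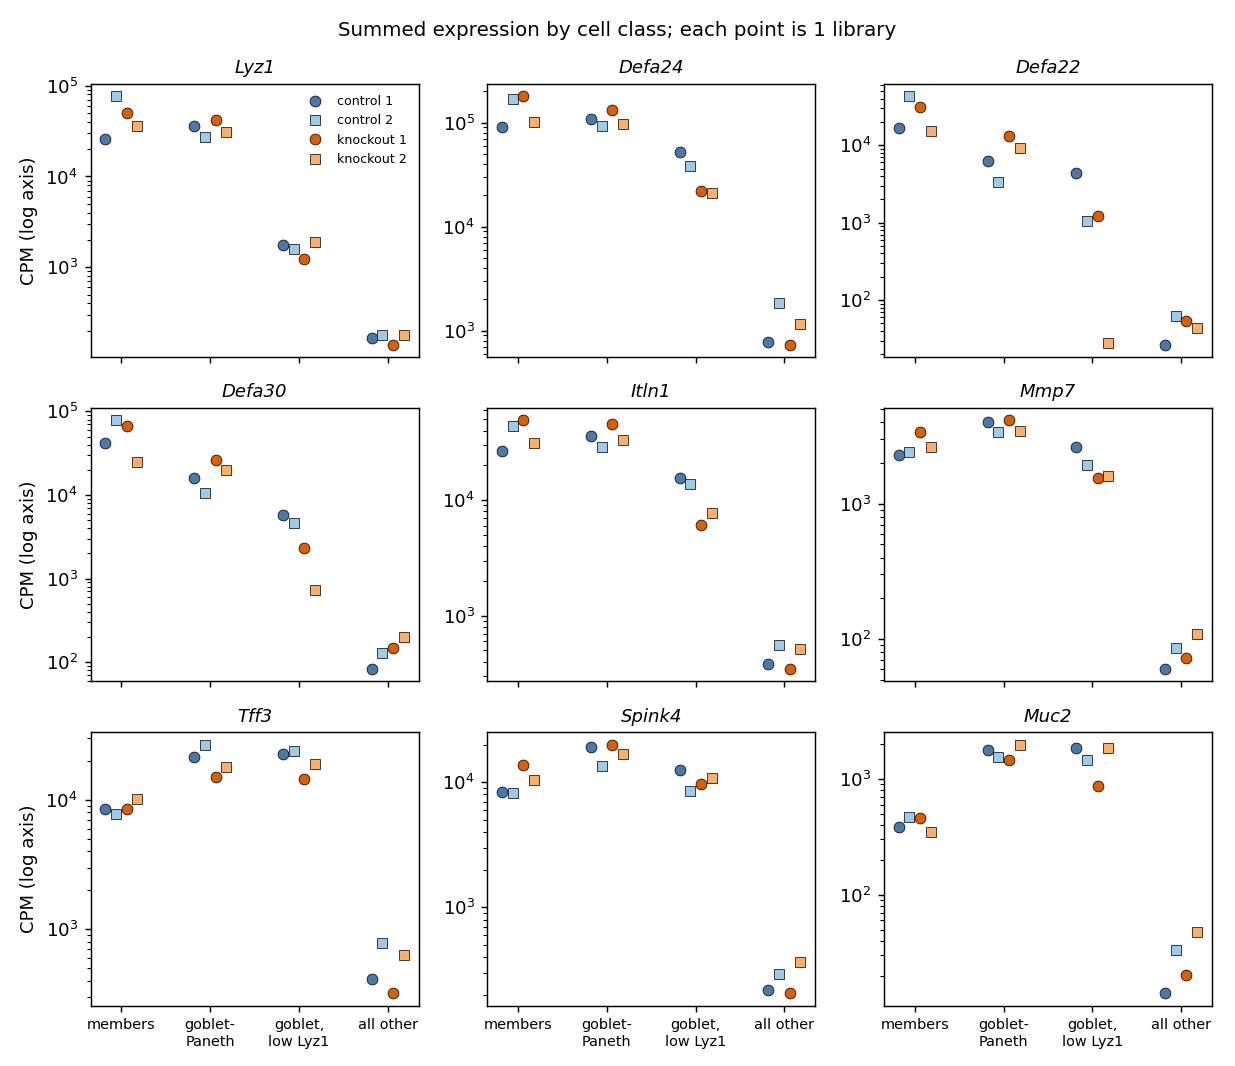
CPM on a log axis for 9 genes in members, goblet-Paneth cells, goblet cells with low Lyz1 and all other cells, each point the summed counts of 1 library. Defa22 and Defa30 were higher in members than in goblet-Paneth cells in all 4 libraries, Mmp7, Tff3, Spink4 and Muc2 were lower, and Muc2 in members, at 349 to 469 CPM, stayed above the other cells.

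Tuft, immune and mesenchymal genes were near 0 in members, while some crypt lineage genes were not. Of the tuft cell list 6 of 10 genes had no UMI in any member, Dclk1 among them, and the summed list ranged from 0 to 6.63 CPM over the libraries. The immune list summed to 14.3 to 19.5 CPM with 8 of 12 genes at 0, Ptprc and Csf1r among them, and most of the rest was Lyz2, the lysozyme gene next to Lyz1, at 9.95 to 19.5 CPM. The mesenchymal list summed to 0 to 1.66 CPM with 7 of 9 genes at 0, the collagen gene Col1a1 and the receptor gene Pdgfra among them. Enterocyte genes summed to 139 to 254 CPM against 3020 to 17000 CPM in other cells. Crypt base stem cell genes summed to 2140, 556, 1490 and 943 CPM in control 1, control 2, knockout 1 and knockout 2, against 3540, 1220, 4730 and 1980 CPM in other cells. Enteroendocrine genes summed to 177, 34.2, 90.2 and 1450 CPM, against 975 to 2230 CPM in other cells.

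Granule proteins filled these cells to very different degrees. The granule set joined 18 secretory genes of the Paneth list, Lyz1 among them, with the 22 Defa features. It made up 24.1%, 48.8%, 44.3% and 23.8% of all member UMIs in control 1, control 2, knockout 1 and knockout 2. Lyz1 chose the members, so a part of this share follows from the rule. Single members ran from 0.7548% to 73.43%, with a median of 28.96%. The spread was not particular to members. Single goblet-Paneth cells ran from 0.9406% to 69.46%, with a median of 20.96%, and 102 of 445 lay below 10%. Summed, goblet-Paneth cells held 23.2%, 18.6%, 29.9% and 21.7% granule UMIs in control 1, control 2, knockout 1 and knockout 2. At least 30% was reached by 52 of 108 members, and at least 60% by 19. Below 10% lay 30 members: 13 of 24 in control 1, 1 of 9 in control 2, 2 of 24 in knockout 1 and 14 of 51 in knockout 2. The library medians were 9.528%, 46.74%, 44.34% and 22.72%, so the low libraries were 1 control and 1 knockout, and so were the high ones. Of the 6 members with Lyz1 at 5000 to 6000 CPM the median granule share was 3.733%, and of the 8 cells just outside, at 4000 to 5000 CPM, it was 2.736%.

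Members with a high granule share had a low share of UMIs from 83 ribosomal protein genes, which ran from 4.397% to 35.81% over single members. Spearman's rho between both shares was -0.66 over 24 cells of control 1, -0.70 over 9 of control 2, -0.85 over 24 of knockout 1 and -0.81 over 51 of knockout 2. Both are parts of the same total, so a rise of one lowers the other by construction. Depth did not follow the granule share in a common direction, with rho of 0.13, 0.78, 0.23 and -0.38.

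**Figure D2:**
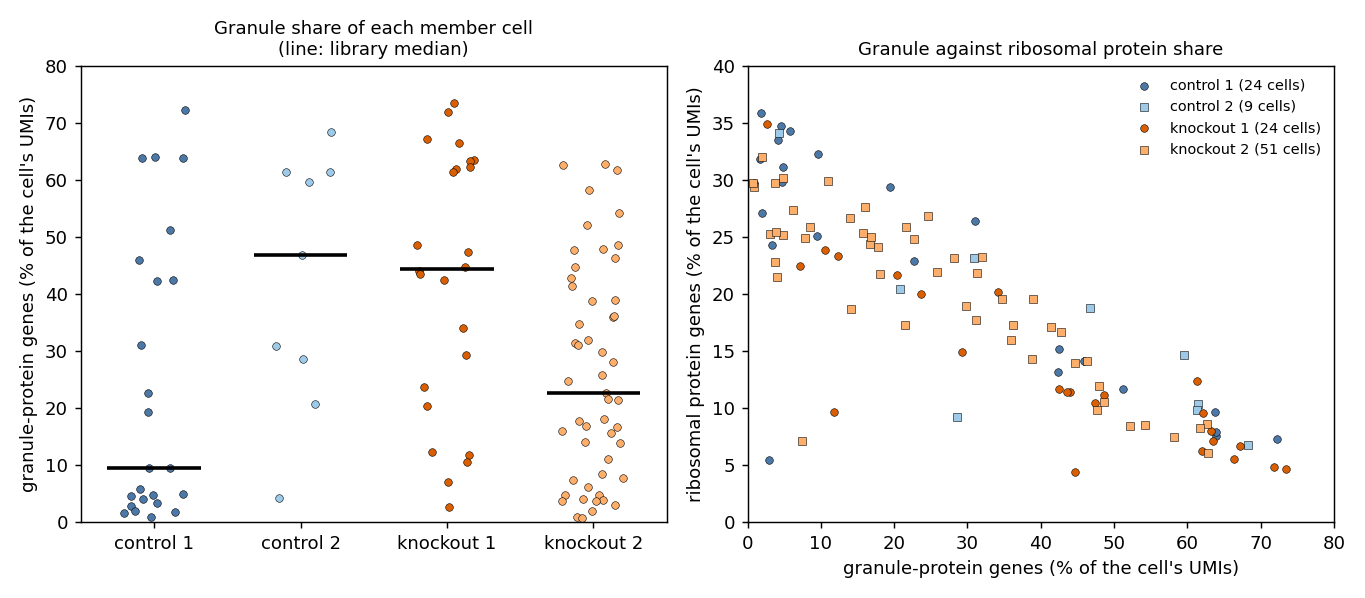
Left, the share of UMIs in granule-protein genes for each of the 108 members, in percent, with the library median as a line. Right, that share against the share in ribosomal protein genes, 1 point per cell; cells run from 0.7548% to 73.43% granule UMIs, and control 1 has 13 of its 24 members below 10%.

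The members low in granule RNA included cells with transcripts of other crypt lineages. Olfm4, a marker of crypt base stem cells, was at 1000 CPM or more in 13 members: 6 in control 1, 0 in control 2, 3 in knockout 1 and 4 in knockout 2. Of these 13, 9 had under 10% granule UMIs and none had 30% or more. Members under 10% granule UMIs held 96.6%, 63.9%, 57.1% and 42.1% of the Olfm4 UMIs of members in control 1, control 2, knockout 1 and knockout 2. They were 13 of 24, 1 of 9, 2 of 24 and 14 of 51 members. Over single members, Spearman's rho of Olfm4 with the granule share was weaker, at -0.21, -0.55, -0.34 and -0.20. Both are parts of the same total, so a high granule share lowers Olfm4 CPM by construction. Neurog3, the transcription factor that starts the enteroendocrine program, was found in 3 members, and 2 of them, in control 1 and in knockout 2, had 10 UMIs or more. Both of these had under 10% granule UMIs and neither was among the Olfm4-high members. These cells were chosen for mention after their values were seen. Under 1% of UMIs in Defa genes was found in 9 members, all under 10% granule UMIs, of which 1 was also among the 13 with high Olfm4.

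Alpha-defensins made up a large part of member UMIs, though ribosomal protein genes held more in control 1 and knockout 2, at 23.7% and 21.5%. The 22 Defa features together gave 17.9%, 35%, 32.3% and 16.1% of member UMIs in control 1, control 2, knockout 1 and knockout 2, against 11.7% to 19.4% in goblet-Paneth cells and 0.098% to 0.217% in other cells. Defa24 was the most abundant single gene at 91200, 169000, 180000 and 101000 CPM, ahead of Defa30, Lyz1 and the lectin intelectin, Itln1, at 26800, 43600, 49000 and 31000 CPM. Among the 20 genes with the highest mean CPM in members, 7 were Defa17, Defa21, Defa22, Defa24, Defa29, Defa30 and the defensin-like Gm14851. Ang4, a microbicidal ribonuclease, also stood there at 4150, 11200, 9080 and 4240 CPM. By the ratio of mean CPM to all other kept barcodes, which include goblet-Paneth cells, Gm14851 led with 52.8-fold, then Defa29 with 47.7-fold and Defa21 with 45.4-fold. Mptx2, a mucosal pentraxin, was 38.4-fold higher, but 93.0% of its control 1 UMIs came from 1 cell and its levels were 191, 4.88, 496 and 19.1 CPM.

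Many Defa genes are near-identical copies, and reads may have been split between them or dropped in the authors' counting. The longest transcripts of Defa21 and Defa22 were 99.3% identical, those of Defa20 and Defa32 were 99.8% identical, and the closest relative of Defa30 was Defa17 at 95.5%. Values of single Defa genes are uncertain to that degree. A split between copies leaves the family sum unchanged, while dropped reads would lower it too.

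Compared with goblet-Paneth cells of the same library, members held more of some defensins than of others. Defa22 was 2.69, 13, 2.38 and 1.66 times as high in members of control 1, control 2, knockout 1 and knockout 2, and Defa30 2.68, 7.44, 2.57 and 1.24 times. Defa21 was 5.36, 24, 2.00 and 1.72 times as high. Defa24, the most abundant, was 0.84, 1.80, 1.36 and 1.05 times as high, and Mmp7 was lower in members in all 4 libraries. Of the 17 Defa genes that passed the filter on low counts, 11 were above goblet-Paneth cells in all 4 libraries. The ratios were largest in control 2, which has 9 members. The difference between these classes is a description and was not tested, since the classes were cut by count limits.

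**Figure D3:**
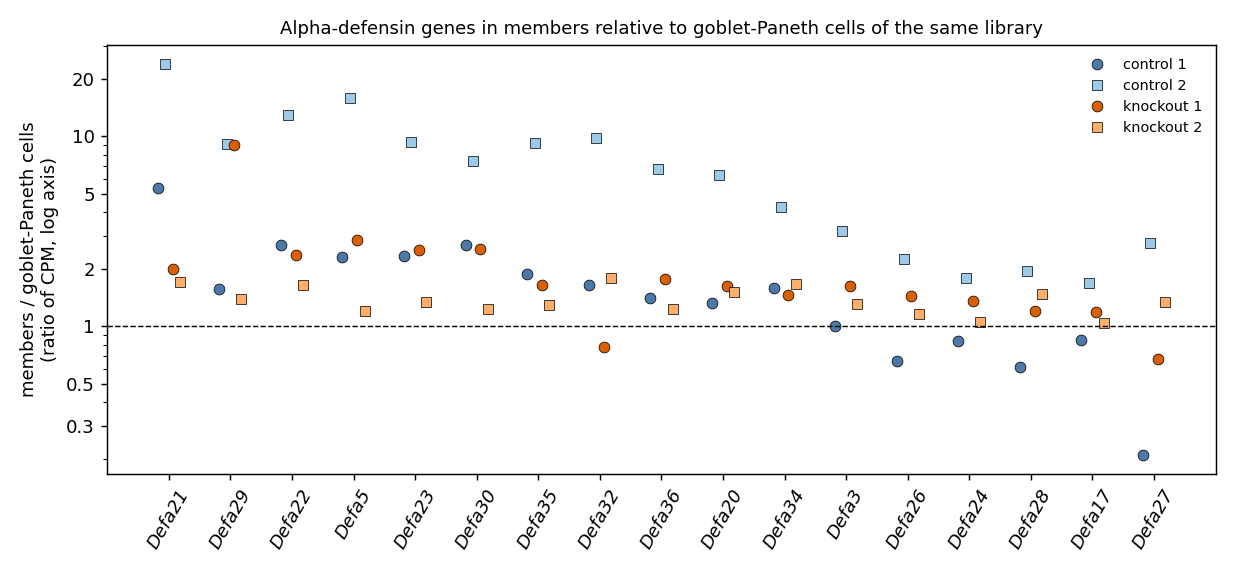
Ratio of CPM in members to CPM in goblet-Paneth cells of the same library for 17 Defa genes, on a log axis, with the dashed line at equality. Defa21, Defa22 and Defa30 lie above 1 in all 4 libraries, while Defa24 runs from 0.84 to 1.80.

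Within a library, Defa22 and Defa30 levels followed each other from cell to cell, with Spearman's rho of 0.83 over 24 cells, 0.93 over 9, 0.74 over 24 and 0.85 over 51. Defa22 followed Defa24, the most abundant defensin, less closely, with rho of 0.78, 0.46, 0.53 and 0.65. Itln1 followed Defa24 with rho of 0.85, 0.83, 0.56 and 0.81. Lyz1, which chose the cells, gave 0.37, 0.66, 0.01 and 0.26 with Defa22 and 0.58, 0.90, 0.32 and 0.46 with Defa24. These values share the cells' totals, and reads of Defa22 may also have been split with close copies or dropped. Defa22 was the more unevenly spread: its highest member reached 112100 CPM, and the lower quartile of all members was 0.

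Of the signals from Paneth cells to stem cells, some were above and some below the level of other cells. Wnt3, the Wnt ligand of the crypt base, stood at 87.9, 63.5, 114 and 113 CPM in members against 6.81 to 15.5 CPM in other cells. Dll4, a Notch ligand, gave 16.6, 12.2, 30.1 and 9.53 CPM against 2.18 to 5.86 CPM. Cd24a, a surface protein used to sort Paneth cells, gave 842, 596, 956 and 747 CPM. Of the regulators, Sox9 stood at 227, 58.6, 144 and 114 CPM, Spdef, a factor of goblet and Paneth maturation, at 74.6, 75.7, 81.2 and 110 CPM, and Xbp1, needed for the secretory endoplasmic reticulum, at 99.5, 122, 156 and 136 CPM. Wnt3, Dll4 and Cd24a were above the other cells in each library. Cd24a was higher still in goblet-Paneth cells, at 1390, 958, 1250 and 883 CPM. Areg, the epidermal growth factor receptor ligand amphiregulin, was below them in each, at 11.6, 14.6, 12 and 31 CPM against 94.6, 524, 66.5 and 248 CPM. The whole list of niche signals summed to 1020, 747, 1170 and 976 CPM in members and 482, 880, 493 and 611 CPM in other cells, so control 2 had less in members. In goblet-Paneth cells the list summed to 1670, 1310, 1470 and 1160 CPM, above members in each library. Kit, a receptor tyrosine kinase of Paneth and goblet cells, stood at 53.1, 34.2, 33.1 and 32.1 CPM, against 2.67 to 7.43 CPM in other cells.

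The share of members was compared between the groups. Members made up 2.07% of barcodes in control 1 (exact Clopper-Pearson 95% interval 1.33% to 3.06%), 1.31% in control 2 (0.602% to 2.48%), 1.45% in knockout 1 (0.934% to 2.16%) and 2.64% in knockout 2 (1.97% to 3.45%). The intervals cover counting error only. The groups overlapped: the mean was 1.69% ± 0.535 (SD, n = 2) in controls and 2.05% ± 0.837 (SD, n = 2) in knockouts, and an exact permutation test over libraries, two-sided, gave p = 0.667. With 2 against 2 libraries it cannot go below 0.333. Within mouse 1 the share was 0.614 percentage points lower with the knockout (-0.614), and within mouse 2 it was 1.33 points higher.

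Among all non-dividing lysozyme-high cells, members were 24 of 142 in control 1 (16.9%, 11.1% to 24.1%) and 9 of 71 in control 2 (12.7%, 5.96% to 22.7%). They were 24 of 124 in knockout 1 (19.4%, 12.8% to 27.4%) and 51 of 216 in knockout 2 (23.6%, 18.1% to 29.8%). Both knockouts were above both controls, with means of 21.5% ± 3.01 and 14.8% ± 2.99 (SD, n = 2 each) and an exact permutation p of 0.333, the smallest possible. The difference of 6.69 percentage points cannot reach significance in this design, and the counting intervals of all 4 libraries overlap.

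**Figure D4:**
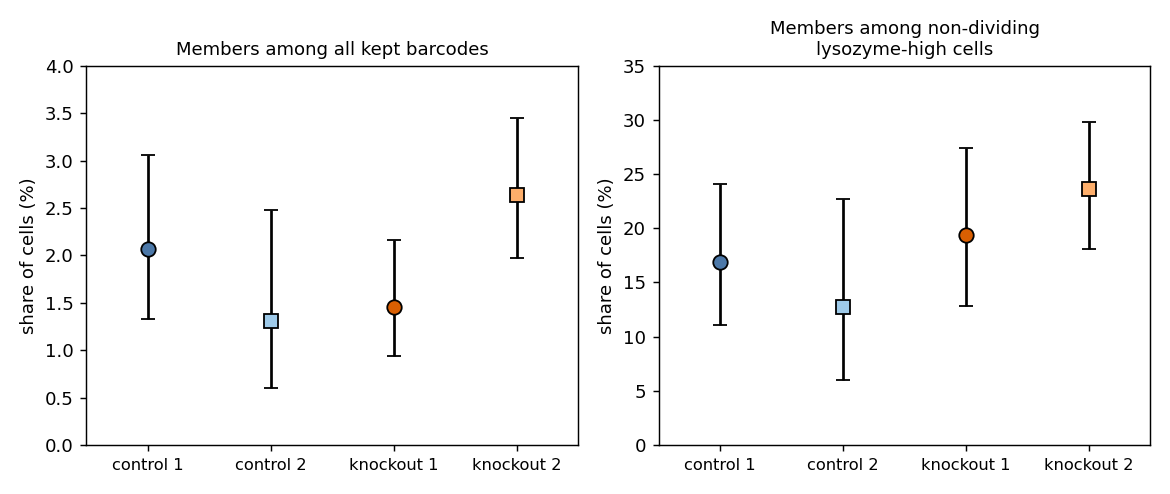
Members as a percentage of all kept barcodes (left) and of non-dividing lysozyme-high cells (right) in each library, with exact 95% intervals for counting error. The left shares overlap between the groups, and on the right the knockouts, at 19.4% and 23.6%, lie above the controls, at 16.9% and 12.7%.

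The deletion itself could barely be read in these cells. Cbl gave 12, 1, 2 and 7 UMIs in members of control 1, control 2, knockout 1 and knockout 2, or 19.9, 2.44, 6.02 and 8.34 CPM. Its exact Poisson intervals, 10.3 to 34.8, 0.0618 to 13.6, 0.729 to 21.7 and 3.35 to 17.2 CPM, overlap between the groups. Cblb gave 11, 1, 1 and 1 UMIs, or 18.2, 2.44, 3.01 and 1.19 CPM. The position of these reads relative to the deleted exons is not known, so they do not check the labels. Of the list of Cbl ligases and partners, 8 genes were tested and none passed.

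Expression was then compared between knockout and control members with edgeR's quasi-likelihood test on the UMI sums per library. Control 2, with 9 members, was below the limit of 10 cells and left the main fit, so that test sets control 1 alone against both knockouts. Its spread between libraries comes from the 2 knockouts alone, so its p-values do not measure the spread between controls. Of 6165 genes tested, 11 were higher with the knockout (0.178%) and 2 were lower (0.0324%) at an adjusted p under 0.05. With control 2 kept, 1 of 4509 genes was higher (0.0222%) and 0 were lower (0.0%), with 104 at an unadjusted p under 0.05 in edgeR and 1 gene called by DESeq2. With the mouse number as a block in that fit, 0 were higher (0.0%) and 0 were lower. The values of all 4 libraries are therefore given for each gene. With 2 against 2 libraries, a share of about 0.333 of unchanged genes would have both knockouts on the same side of both controls. Lack of overlap between the groups is therefore only a description, and its share over all genes tested was not computed. The share of 0.333 does not hold for genes called without control 2, since control 1 and the knockouts chose them.

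Reg4, a secreted lectin of goblet, enteroendocrine and deep crypt secretory cells (chr3:98222156-98236748), was the gene called in both edgeR fits without the block. It stood at 333 and 159 CPM in control 1 and 2 and at 987 and 1400 CPM in knockout 1 and 2, so both knockouts were above both controls. The reads were spread over 19 of 24, 4 of 9, 20 of 24 and 44 of 51 members, and the highest cell held 26.4%, 52.3%, 15.5% and 12.5% of them. The log2 fold change was 2.05 ± 0.52 (SE; edgeR adjusted p = 0.0465) without control 2 and 2.19 ± 0.32 (edgeR adjusted p = 0.0256) with it, and the adjusted p was 0.738 with the block. On simulated counts of this 4-library comparison, with the same spread set for every gene, 2 of 4299 unchanged genes were called. The real sums are more uneven, so the rate of false calls in them is not known. Goblet-Paneth cells held 878, 803, 1730 and 2490 CPM of Reg4 and all other cells 56.6, 104, 94.7 and 211 CPM. In goblet-Paneth cells too, both knockouts were above both controls, and in the other cells the groups overlapped. The interaction for Reg4 between members and goblet-Paneth cells was 0.87 ± 0.31 on the log2 scale (edgeR adjusted p = 1.0).

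Several of the other calls rested on few cells. Ghrl, the hormone ghrelin, had 628 UMIs in knockout 2 and none in the other 3 libraries, and 99.8% of them came from 1 cell. Pyy, the gut hormone peptide YY, had 369 UMIs in knockout 2, of which 99.5% came from 1 cell, and 2 UMIs in control 1. These were the 2 of 5 tested enteroendocrine genes that passed, and Chga and Chgb, enteroendocrine granule proteins, gave 14.3 and 33.3 CPM in the same library. Sprr2a3, a small proline-rich epithelial protein, stood at 16.6, 63.5, 156 and 206 CPM, above the controls in both knockouts, but 1 cell held 88.5% and 87.9% of the knockout UMIs. Ceacam10 likewise came from 1 cell for 75% and 82.4% of its knockout UMIs, at 12 and 40.5 CPM against 0 and 4.88 CPM. With each gene's highest cell left out of each library, an alternative chosen after seeing the data, 0 of 5146 genes were called without control 2, and Reg4 alone was called with it (log2 fold change 2.51, edgeR adjusted p = 0.0132).

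Control 2 overlapped the knockouts for most of the rest. Defa27 gave 31.5 and 371 CPM in the controls and 186 and 245 CPM in the knockouts, and Gm15292, a defensin-like gene, gave 21.6, 193, 475 and 113 CPM. Ly6a and Clu, markers of injured and fetal-like epithelium, gave 0, 29.3, 9.02 and 58.3 CPM and 0, 4.88, 0 and 39.3 CPM. They were the 2 of 6 tested fetal-like genes that passed. Lgals3, a galectin of differentiated epithelium, gave 11.6, 63.5, 18 and 111 CPM. AY761184, another defensin-like gene, gave 884, 1490, 6580 and 2670 CPM, where the groups did not overlap. It was found in 13 of 24, 5 of 9, 14 of 24 and 28 of 51 members, and the highest cell held 29.8%, 79.2%, 23.1% and 20% of its UMIs. Its log2 fold change with control 2 kept was 1.81 ± 0.52 (edgeR adjusted p = 1.0). The lower genes were Cps1, a urea-cycle enzyme of intestinal epithelium, at 227, 24.4, 57.1 and 44.1 CPM, and Prap1, an enterocyte product, at 56.4, 7.32, 15.0 and 7.14 CPM. In both, control 1 stood apart from the other 3 libraries, and control 1 is also the library with the largest share of members low in granule RNA. Whether those members have a part in the levels of either gene was not tested. With control 2 kept, Cps1 had a log2 fold change of -1.41 ± 0.53 and was not called (edgeR adjusted p = 1.0). The calls were also recomputed on members with at least 10% granule UMIs, all 4 libraries included, an alternative chosen after seeing the data, where Cps1 had a log2 fold change of 0.23 and was not called (edgeR adjusted p = 0.975). In that fit of 2906 genes Reg4 was not called (log2 fold change 1.82, edgeR adjusted p = 0.18), and Defa32 alone was called, as lower. The granule share that chose these cells includes Reg4 and all Defa features, so the results for Reg4 and Defa32 are only a description. Over all members Defa32 gave 221, 290, 99.3 and 81 CPM, without overlap of the groups. Its log2 fold change was -1.10 ± 0.39 without control 2 (edgeR adjusted p = 0.419) and -1.72 ± 0.39 with it (edgeR adjusted p = 0.801).

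**Figure D5:**
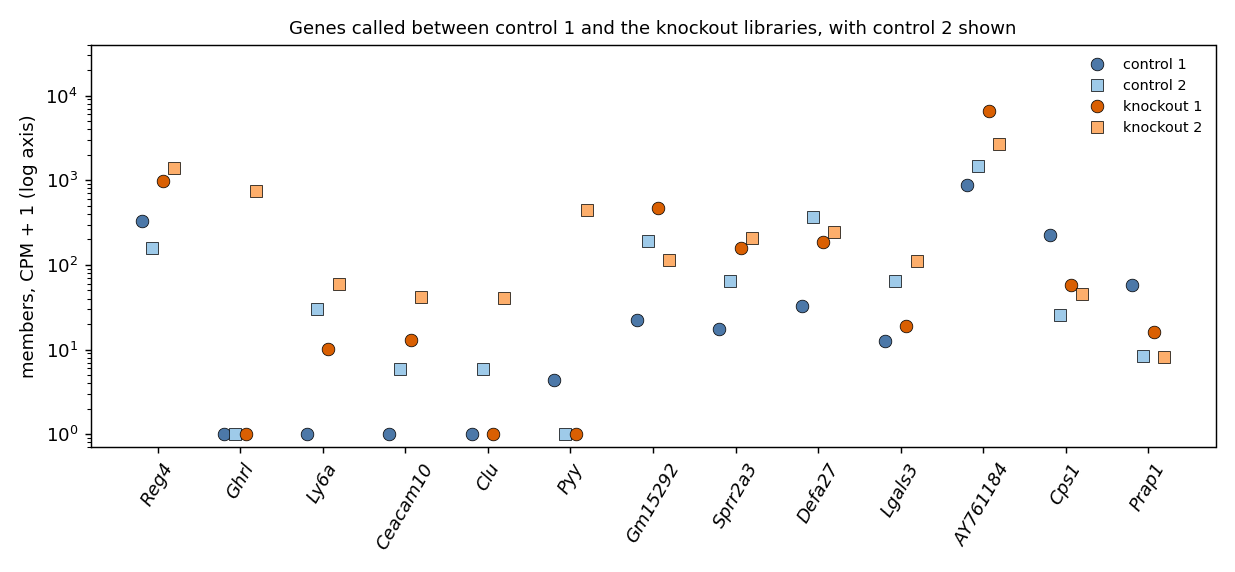
CPM + 1 on a log axis in members of each library for the 13 genes called between control 1 and the knockouts, with control 2 shown though it was not in that fit. Reg4, Sprr2a3, Ceacam10 and AY761184 are higher in both knockouts than in both controls, while control 2 lies among or above the knockouts for Defa27 and Gm15292. Control 1 and the knockouts chose these genes, so a lack of overlap is only a description.

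Over all members, Reg4 was the one gene of the granule and Defa sets called with control 2 kept. Of the 13 tested genes of the granule list, Reg4 rose and the other 12 did not pass; the median log2 fold change was 1.00 without control 2 and 0.03 with it, against 0.01 and -0.01 over all genes tested. Of the 17 tested Defa genes, Defa27 was called without control 2 and none with it, and their median was 0.92 and -0.48, so its sign depended on control 2. The summed Defa level was 26.5% ± 12.1 of UMIs in controls and 24.2% ± 11.5 in knockouts (SD, n = 2 each; two-sided exact permutation p = 0.667). The differences within the mice were opposite: 14.4 percentage points higher with the knockout in mouse 1 and 19.0 lower in mouse 2 (-19.0). With 2 libraries a group, a change smaller than these differences between mice could not be told from none.

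Receptor signalling genes gave no call. Of 11 tested genes of the list of ERBB and other receptor tyrosine kinases, the targets of Cbl proteins, none was called, with a median log2 fold change of -0.58, also over the 3 tested with control 2. Erbb3, a neuregulin receptor, gave 34.8, 12.2, 24.1 and 19.1 CPM. Of 5 tested ERK feedback genes, which rise when receptor signalling rises, none passed, with a median of 0.19, and 0.73 over the 2 tested with control 2. Dusp6, an ERK phosphatase, gave 8.29, 14.6, 36.1 and 36.9 CPM, without overlap of the groups, as about 0.333 of unchanged genes would. Its log2 fold change was 2.28 without control 2 and 1.58 ± 0.56 with it (edgeR adjusted p = 1.0 with control 2). Spred1, an ERK inhibitor, gave 9.95, 4.88, 18 and 28.6 CPM, and its adjusted p was 0.983 in edgeR without control 2.

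The remaining lists gave no call. They were fate and maturation (15 genes tested, median log2 fold change 0.18), niche signals (6, 0.43), immediate early genes (15, 0.09) and endoplasmic reticulum folding (21, 0.52). With control 2 kept, the medians of these 4 were -0.05, 0.16, 0.02 and 0.29. Wnt targets (11 genes, -0.68), crypt base stem cell genes (12, -0.69) and zinc handling with metallothioneins (6, -0.43) had medians below 0, which stayed below 0 with control 2 at -0.33, -0.32 and -0.91. Mt1 and Mt2, the metallothioneins, gave 1960, 622, 553 and 845 CPM and 602, 107, 144 and 206 CPM, with control 1 above the other 3 libraries. Olfm4 gave 988, 87.9, 779 and 235 CPM, higher in both libraries of mouse 1 than in both of mouse 2. Lgr5, the receptor that marks crypt base stem cells, gave 84.6, 17.1, 75.2 and 23.8 CPM in the same pattern. p53 targets (11, 0.53), glycolysis with ADP/ATP carriers (17, 0.21), amino acid response (12, -0.04), autophagy (9, 0.11), goblet genes outside the rule (14, 0.50), DNA replication (19, -0.14) and mitosis outside the rule (5, 0.02) likewise had no gene past the threshold. The enterocyte (7, 0.12), Notch response (2, -0.50) and interferon (3, 0.08) genes had none either. With control 2 kept the median turned sign for autophagy (-0.11), DNA replication (0.13), mitosis (-0.04) and Notch response (0.07). It was 0.40 for p53 targets, 0.22 for glycolysis, -0.25 for amino acid response, 0.20 for goblet genes, 0.04 for enterocyte and 0.01 for interferon genes. No tuft, immune, mesenchymal, endothelial, glial or erythroid gene passed the filter on low counts.

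The knockout effect was finally compared between members and goblet-Paneth cells with an interaction term over all 4 libraries. Control 2 stayed in this test as planned, though its 9 members are below the limit used for the main fit. Of 7028 genes tested, 0 differed (0.0%; edgeR, 223 at an unadjusted p under 0.05), and without control 2 the count was 34 of 7123. The 8 genes with the smallest p among the more abundant ones all had an adjusted p of 1.0 in edgeR. Among them Defa21 gave 13100, 34400, 15100 and 9470 CPM in members and 2450, 1430, 7540 and 5500 CPM in goblet-Paneth cells. Phgdh, the first enzyme of serine synthesis, gave 113, 161, 81.2 and 163 CPM in members and 36.1, 77.5, 60.3 and 134 CPM in goblet-Paneth cells. Ddit4, a stress-induced inhibitor of mTOR signalling, gave 56.4, 36.6, 9.02 and 23.8 CPM in members, lower in both knockouts, and 34.4 to 45.0 CPM in goblet-Paneth cells (interaction log2 difference -1.58 ± 0.43).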

How the data were processed

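Single-cell RNA was measured in 4 libraries on the 10x platform. The deposited matrices hold whole-number UMI counts per gene and barcode, per the file headers, which name software version 3.0.0. The submitters' processing notes list Cell Ranger 3.0.1 and the build mm10. Strand setting and annotation release are not given in the sources used here. Of 5602 deposited barcodes, the 5429 with at least 500 genes were kept. Doublets were kept, and their removal (Scrublet in scanpy 1.11.5, the highest scores at 0.8% per 1000 barcodes) was an alternative.

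Member counts were summed per library and tested two-sided with edgeR 4.0.16 (TMM scaling, filterByExpr, quasi-likelihood F test, Benjamini-Hochberg adjusted p) in R 4.3.3, leaving out a library with under 10 members, as the design states. The interaction test kept all 4 libraries. Shares and the Defa sum were compared by exact permutation (scipy 1.17.1). DESeq2 1.42.0 and limma 3.58.1 (log2 of CPM + 1 averaged over cells) were alternatives. On simulated counts for 6025 genes of the control 1 against knockout comparison, 45 of 60 genes raised and 19 of 41 lowered 4-fold, 4 of 50 raised and 7 of 49 lowered 2-fold, and 0 of 5825 unchanged genes were called. For the 4-library comparison, simulated on 4496 genes, these were 53 of 54, 35 of 40, 9 of 49, 10 of 54 and 2 of 4299. Changed genes were simulated beside the unchanged ones, so these 2 false calls do not tell whether a single call in the real fit is false. The simulated counts had the same spread beyond counting error for every gene, while in members 1 cell held most UMIs of some genes. These rates may therefore not hold for the real sums, whose rate of false calls was not measured.

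The numbers 1 and 2 were taken to name the mice: the labels give 2 mice, and the deposited control and knockout files of a number share a tag, but no label says so in words. Deviations of same-numbered libraries from their group means correlated at -0.079 over 4119 genes in members. Chi-square per degree of freedom was 18.9 between the controls and 17.7 between the knockouts, so neither pair is 1 library deposited under 2 names. P-values measure the spread between these libraries only, and without control 2 only that between the 2 knockouts.

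Genes were named by rule: the 4 markers with Cbl and Cblb; up to 4 genes per list; called genes with mean log2 CPM of at least 5 and large change; the 20 highest in level and in ratio; the 8 smallest interaction p; and all tested Defa genes. The remaining called genes were added after their values were seen. The members, the 27 lists and the rules were chosen with earlier results of these data known. Coordinates are GENCODE M21 (GRCm38), matched by Ensembl identifier.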

Additional observations from a re-analysis of the deposited data

Results flagged for a closer look

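Several results moved in opposite directions in the 2 mice under the same contrast, knockout minus control, where libraries of one number were taken to be one mouse from a tag their files share. Each mouse has 1 library per group, so the difference between the mice was not tested. The share of members among all barcodes changed by -0.614 percentage points in mouse 1 and by 1.33 in mouse 2. The summed Defa level changed by 14.4 percentage points of UMIs in mouse 1 and by -19.0 in mouse 2. Beside it, 13 of 24 members of control 1 and 1 of 9 of control 2 had under 10% granule UMIs, against 2 of 24 and 14 of 51 in the knockouts of the same mice, and the part of these cells in the difference was not tested.

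Of the 13 genes called without control 2, 4 moved in opposite directions on the log2(CPM + 1) scale. Cps1 changed by -1.97 in mouse 1 and by 0.83 in mouse 2, Gm15292 by 4.4 and -0.76, and Defa27 by 2.53 and -0.59. Pyy changed by -2.11 in mouse 1, where only 2 UMIs were counted, and by 8.78 in mouse 2, where 1 cell held 99.5% of the UMIs.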

How the results depend on the processing

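Alternatives with control 2 kept, those without the highest cell of each gene and that at 10% granule UMIs were chosen after seeing the data. Control 2 had 9 members, so the planned limits of 20000 CPM for Lyz1 and 500 CPM for the goblet sum were run with it kept. Genes higher and lower in knockout members numbered 11 and 2 in the fit without control 2. They numbered 2 and 0 with DESeq2, 4 and 1 with total counts, 2 and 1 at 1000 genes per barcode, 8 and 1 without likely doublets, and 13 and 12 with the mean over cells in limma. With control 2 kept they were 1 and 0, likewise with DESeq2, with scaling without granule genes and at Lyz1 of 20000 CPM. They were 0 and 0 with the replicate block and at the goblet limit of 500 CPM. Without the highest cell of each gene they were 0 and 0 (118 of 5146 genes at an unadjusted edgeR p under 0.05), and 1 and 0 with control 2 kept. At 10% granule UMIs they were 0 and 1, in cells chosen by a sum that includes the Defa genes and Reg4. Leaving out control 1, knockout 1 or knockout 2 from the 4-library fit gave 7 to 9 higher and 0 to 18 lower genes.

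Reg4 stayed higher in all 20 alternatives, with log2 fold changes from 1.82 to 2.51 and edgeR, DESeq2 or limma adjusted p from 3.91e-06 to 1.0. Defa27 reversed with control 2 kept (-0.27; DESeq2 -0.34; scaling without granule genes -0.27; Lyz1 at 20000 CPM -0.34; 10% granule UMIs -0.0854) and between -1.27 and -0.25 with control 1, knockout 1 or knockout 2 left out. Lgals3 reversed at Lyz1 of 20000 CPM (-0.38), at 10% granule UMIs (-0.55), without control 1 (-0.37) and without knockout 2 (-0.90). With control 1, knockout 1 or knockout 2 left out, Lgals3 ranged from -0.90 to 1.27. Cps1 reversed at 10% granule UMIs (0.23) and without control 1 (0.48; range over the same fits -1.69 to 0.48). Gm15292 reversed without knockout 1 (-0.40; range -0.40 to 2.07). Ly6a reversed without control 1 (-0.12) and knockout 2 (-0.61; range -0.61 to 1.88). The main fit, without control 2, lay outside these ranges. It gave 2.78 for Lgals3, -2.01 for Cps1, 4.06 for Gm15292 and 7.61 for Ly6a. The cause of the reversals was not tested.

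The replicate block left the difference in the member share at 0.356 percentage points, in the share among lysozyme-high cells at 6.69 and in the summed Defa level at -2.30 percentage points of UMIs. With 1 library left out they ranged from -0.236 to 0.948, from 4.57 to 8.82 and from -10.9 to 6.26. The member share reversed without control 2 (-0.0225) and without knockout 2 (-0.236), and the Defa level reversed there too (6.26 and 5.83). The interaction count of 0 became 34 without control 2 and was 0 in the other alternatives. Depth limits Cbl and Cblb, with 1 to 12 UMIs per library.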
